A study of Mus musculus with 6 samples.

Results

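Prom1 and 9 genes known from hematopoietic stem and progenitor cells (Kit, Cd34, Flt3, Meis1, Hoxa9, Mecom, Gata2, Myb and Lmo2) were followed in RNA-seq libraries of mouse articular cartilage. They were found by exact gene symbol, 10 of 34709 genes in the deposited table, and Prom1 was picked for its rise in the knockout (KO) libraries, whereas the other 9 are progenitor genes by prior knowledge. There were 3 KO and 3 wildtype libraries of cartilage, which per the study's methods came from male mice of 18 months, the KO being a purchased C57BL/6J line that was compared with littermates. The sources used here do not say whether a library was made from 1 animal or from several, so p-values measure the spread between these samples only.

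Prom1 encodes prominin-1 (CD133), a pentaspan membrane glycoprotein of cell protrusions that is used as a surface marker of stem and progenitor cells in several tissues. Hematopoietic stem cells and the progenitors that follow them reside in bone marrow, where the receptor tyrosine kinases KIT and FLT3 receive survival signals from their ligands, and where transcription factors such as GATA2, MEIS1, HOXA9, MECOM and MYB hold the progenitor program. As cells commit to the granulocyte, erythroid or lymphoid lineage, these genes are turned down in a different order for each lineage. Articular cartilage itself has no blood vessels, and its cells are chondrocytes.

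The libraries held between 52268311 and 63331135 counts. The median squared difference between KO 2 and KO 3 over 12678 genes was 5.78 times that expected from sampling noise. For the other 14 pairs of libraries it was 23.5 to 83.8 times. KO 2 and KO 3 were therefore averaged and counted as 1 sample, which gave 2 KO and 3 wildtype samples. On the first principal component, which held 48.4% of the variance, KO 1 lay at 13.5 near the wildtype libraries (16.1 to 20.2), and KO 2 and KO 3 lay at -33.9 and -33.8. Of the chondrocyte markers, Prg4, Comp and Acan were present and Matn1, Matn3 and Col9a1 were near 0, and the summed level of the 16 chondrocyte markers was 678 to 1500 FPKM (a level corrected for transcript length and library size) in KO and 670 to 893 FPKM in wildtype. Erythroid markers summed to 25113 to 60861 FPKM in KO and 71934 to 108814 FPKM in wildtype, so blood-cell transcripts were abundant in these cartilage libraries. In bulk tissue, fewer cells of a type and less RNA per cell cannot be told apart.

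The members lie on 7 chromosomes of the GRCm38 build. Prom1 (ENSMUSG00000029086, chr5:43993620-44101958, minus strand), Kit (ENSMUSG00000005672, chr5:75574916-75656722, plus strand) and Flt3 (ENSMUSG00000042817, chr5:147330741-147400489, minus strand) share chromosome 5, but lie far apart on it. Hoxa9 (ENSMUSG00000038227, chr6:52223100-52231089, minus strand) and Gata2 (ENSMUSG00000015053, chr6:88193891-88207032, plus strand) are on chromosome 6. The remaining 5 are Cd34 (ENSMUSG00000016494, chr1:194938819-194961279, plus strand), Lmo2 (ENSMUSG00000032698, chr2:103957986-103981878, plus strand), Mecom (ENSMUSG00000027684, chr3:29951296-30548008, minus strand), Myb (ENSMUSG00000019982, chr10:21124935-21160984, minus strand) and Meis1 (ENSMUSG00000020160, chr11:18879817-19018985, minus strand). They range from the compact Hoxa9, which spans 7990 bases, to Mecom, which spans 596713 bases. The gene annotation deposited with the table put Prom1, Kit, Cd34 and Flt3 together at the cell surface, a term given to 2.81% of 25835 annotated genes, and put Gata2, Hoxa9, Meis1 and Myb under definitive hemopoiesis, a term given to 0.0968%.

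The 4 stretches that follow are the bases just upstream of RefSeq start sites (GRCm38.p6) of the gene picked for its rise, of the 2 cytokine receptors whose mean was higher in KO, and of a factor that was lower in each KO library. They are shown so that the sequence next to each start can be set beside its values. Each is printed on the strand of its gene and free of annotated exons of that gene. Prom1 is shown at its second start, inside the gene (chr5:44094769-44095018, minus strand), because the window of its first start lies in annotated exons of longer transcripts. The bases shown for Prom1 are thus intron sequence of longer transcripts. Kit is at chr5:75574737-75574915 (plus strand), Flt3 at chr5:147400490-147400739 (minus strand) and Hoxa9 at chr6:52227371-52227620 (minus strand). The Hoxa9 window also lies inside the span of its gene. The Kit stretch stops where an annotated exon begins, so the 71 bases next to its RefSeq start are not printed. Capitals mark letters of a searched motif.
Prom1 second start: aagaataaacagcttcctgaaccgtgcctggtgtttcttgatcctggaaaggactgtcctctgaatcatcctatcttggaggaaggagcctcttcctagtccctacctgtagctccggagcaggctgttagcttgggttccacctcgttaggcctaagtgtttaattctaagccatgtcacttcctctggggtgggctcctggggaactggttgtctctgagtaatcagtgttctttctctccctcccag
Kit: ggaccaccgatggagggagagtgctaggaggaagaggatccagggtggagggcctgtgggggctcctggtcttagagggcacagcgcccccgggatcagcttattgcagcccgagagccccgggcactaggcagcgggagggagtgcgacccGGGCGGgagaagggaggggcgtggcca
Flt3: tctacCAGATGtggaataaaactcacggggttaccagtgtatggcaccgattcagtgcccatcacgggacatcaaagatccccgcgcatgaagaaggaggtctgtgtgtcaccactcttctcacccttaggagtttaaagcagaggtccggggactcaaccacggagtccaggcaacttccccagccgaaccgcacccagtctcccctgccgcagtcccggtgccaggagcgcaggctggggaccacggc
Hoxa9: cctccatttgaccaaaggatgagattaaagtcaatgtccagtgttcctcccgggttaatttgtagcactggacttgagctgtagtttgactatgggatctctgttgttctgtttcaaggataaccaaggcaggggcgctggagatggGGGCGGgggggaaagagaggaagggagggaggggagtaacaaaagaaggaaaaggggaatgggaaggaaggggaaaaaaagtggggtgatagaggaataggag

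The letters of 9 short motifs were searched on both strands in the 250 bases before each start: for GATA factors AGATAA, for HOX factors TGATTTAT, for MEIS1 and its relatives TGACAG, for MYB CAGTTG, for ETS factors CCGGAAGT, for RUNX factors TGTGGT, for TAL1 the E-box CAGATG, for Sp1 GGGCGG, and the core promoter box TATAAA. The RefSeq table matched 9 of the 10 members, all but Lmo2, with 13 start windows. The printed stretches hold at most 1 match each, so no 2 motifs overlap there. Kit has the Sp1 letters 98 bases before its RefSeq start, which lies past the end of the printed stretch. Hoxa9 has them 103 bases before its start, and Flt3 has the E-box letters 245 bases before its start. The second start of Prom1 has none of the 9. The first start of Prom1 has the RUNX letters 24 bases and the Sp1 letters 62 bases before it. Over all members, the Sp1 letters were present in 8 of 13 windows (6 genes), against 32.7% of 32851 promoters. The 2 Kit windows overlap and hold the same Sp1 site. These letters are all G and C, and the 13 windows held 46.4% to 81.2% GC, beside a median of 52.4% over all promoters. The part of GC content in the Sp1 share was not tested. The GATA, HOX, MYB and TATAAA letters were in none, against 9.99%, 0.837%, 11.1% and 12.4% of promoters. The RUNX letters were in windows of 2 members (14.0% of promoters), the E-box letters in 2 (14.4%), and the MEIS and ETS letters in 1 each (15.9% and 2.88%).

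Prom1 was at 7.91 FPKM in KO 1, 10.4 FPKM in KO 2 and 10.7 FPKM in KO 3, and at 4.62, 4.28 and 3.99 FPKM in wildtype 1, 2 and 3. Each KO library was above each wildtype library, with KO 1 the lowest of the KO libraries. The KO level was 9.25 ± 1.9 FPKM (SD, n = 2) and the wildtype level 4.30 ± 0.315 FPKM (SD, n = 3), a ratio of 2.15, and the log2 difference in counts was 1.12. Since Prom1 was selected on this very contrast, no test is given for it. The counts behind these levels were 3323 to 5423 per KO library and 1826 to 2191 per wildtype library. The difference lay between 0.94 and 1.26 over 16 alternative analyses, the lowest with limma on log2(FPKM + 1) and the highest without KO 1. Without KO 2 and KO 3 it rested on KO 1 alone, in which Prom1 was 0.87 above the wildtype mean on the log2(FPKM + 0.1) scale.

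**Figure D1:**
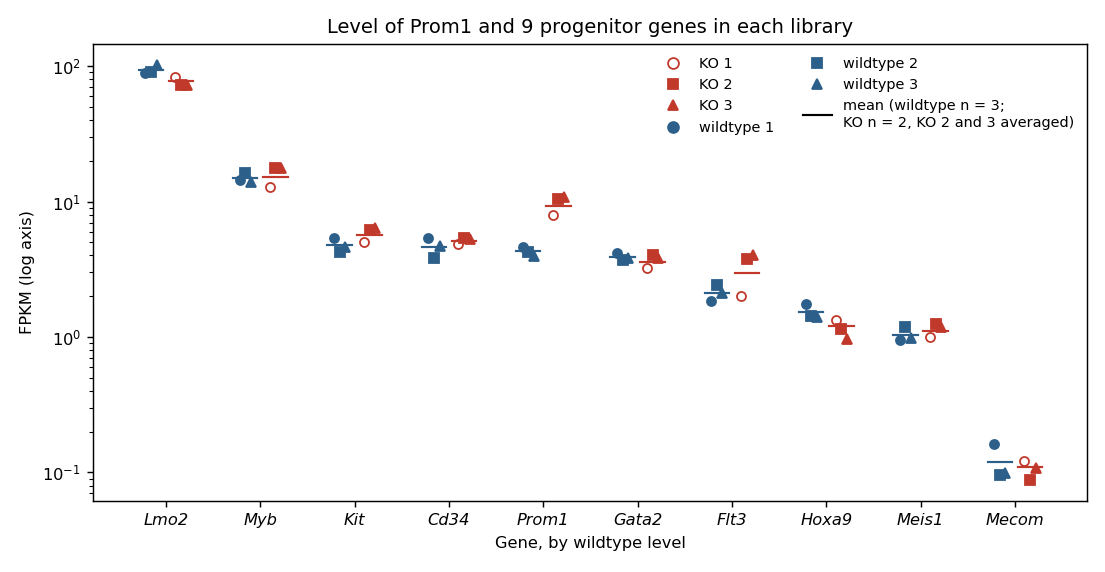
Level of the 10 genes in each of the 6 libraries, in FPKM on a log axis, with genes ordered by wildtype mean; blue marks wildtype, red marks KO (KO 1 open), and bars are means. Prom1 sits at 7.91 to 10.7 FPKM in KO and 3.99 to 4.62 FPKM in wildtype, while for Kit, Cd34, Gata2, Flt3, Meis1, Myb and Mecom the red and blue points overlap.

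In wildtype cartilage the 10 genes covered nearly 3 orders of magnitude per length. Lmo2, a LIM-domain bridging protein of hematopoietic transcription complexes, was highest at 94.1 ± 7.23 FPKM (SD, n = 3), and Myb, a transcription factor of proliferating progenitors, was next at 14.9 ± 1.24 FPKM. Kit (4.77 ± 0.572 FPKM), Cd34 (4.63 ± 0.748 FPKM), Prom1 and Gata2 (3.90 ± 0.253 FPKM) followed, and each of these overlapped its neighbour in the order. Flt3 (2.12 ± 0.293 FPKM), Hoxa9 (1.53 ± 0.190 FPKM) and Meis1 (1.04 ± 0.126 FPKM) were each separated from their neighbours by non-overlapping libraries. Mecom, a zinc-finger regulator of long-term stem cells, was lowest at 0.119 ± 0.0378 FPKM. In KO the order differed for Prom1, which moved from the fifth to the third place, past Kit and Cd34.

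For the 8 other members that could be tested, no difference between KO and wildtype passed the threshold. In an edgeR quasi-likelihood test on 15373 genes with Benjamini-Hochberg adjustment, 0 of the 8 had an adjusted p under 0.05 and 0 had an unadjusted p under 0.05. Over all 15373 genes the same fit called 0 genes at the adjusted threshold (0%), with a lowest adjusted p of 0.105, and 2106 genes (13.7%) at an unadjusted p under 0.05. DESeq2 called 880 genes and limma 0, and neither called any of the 8. With the 6 libraries taken as labelled edgeR called 570 genes (3.71%), again none of the 8, of which Kit, Flt3 and Lmo2 then had unadjusted p-values of 0.0272, 0.0432 and 0.0430 (edgeR). Of the 8, 5 had a higher and 3 a lower mean in KO, with a median log2 difference of 0.08, beside -0.02 over all genes tested.

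**Figure D2:**
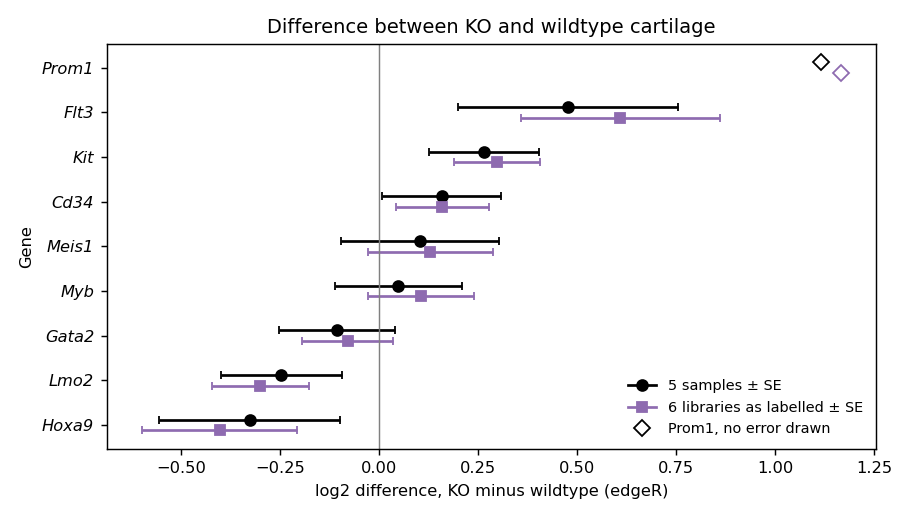
Log2 difference between KO and wildtype for the 9 members above the low-value limit, with the 5-sample analysis in black and the 6 libraries as labelled in violet; bars are standard errors, and Prom1 (diamonds) is drawn without one because it was chosen on this contrast. The 8 other members lie between -0.33 and 0.48 with 5 samples, below the 1.12 of Prom1.

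Among the surface receptors, Kit, the receptor of stem cell factor that is also kept by mast cells, was at 5.05, 6.14 and 6.39 FPKM in KO 1 to 3 and 5.39, 4.27 and 4.64 FPKM in wildtype 1 to 3. KO 2 and KO 3 were above every wildtype library and KO 1 was within their range. The log2 difference was 0.26 (SE 0.138), with an interval of 2 standard errors on either side (2-SE interval) of -0.01 to 0.54, and an adjusted p of 0.474 in edgeR's quasi-likelihood test, and so was not larger than the spread between samples.

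Flt3, the receptor tyrosine kinase of multipotent and lymphoid progenitors, was at 2.01 FPKM in KO 1, 3.78 FPKM in KO 2 and 4.06 FPKM in KO 3, against 1.85, 2.43 and 2.10 FPKM in wildtype 1, 2 and 3. It showed the widest split inside the KO group among the 10 genes: KO 2 and KO 3 were above all wildtype libraries, and KO 1 lay among the wildtype. The log2 difference was 0.48 (SE 0.277, 2-SE interval -0.08 to 1.03, adjusted p 0.531 by edgeR). Without KO 1 it was 0.84 (SE 0.230, unadjusted p 0.00976, adjusted p 0.107), and with KO 1 as the only KO sample it was -0.0048, so its direction rested on KO 2 and KO 3. Kit had 2301 to 4016 counts and Flt3 727 to 1764 counts per library.

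Cd34, a sialomucin of progenitors and of vascular endothelium, was at 4.87, 5.35 and 5.26 FPKM in KO 1 to 3 and at 5.34, 3.85 and 4.70 FPKM in wildtype 1 to 3. The groups overlapped, and the wildtype libraries spanned a wider range than the KO libraries. The log2 difference was 0.16 (SE 0.15, 2-SE interval -0.14 to 0.46, adjusted p 0.744 by edgeR). Markers of endothelium, where Cd34 is also expressed, summed to 54.4 to 60.3 FPKM in KO and 58.4 to 92.2 FPKM in wildtype, and 12 of 12 tested had a lower mean in KO, 3 of them at an unadjusted p under 0.05 (1 without KO 1), a threshold that 6.07% of all genes passed in that direction. Their part in the level of Cd34 was not tested.

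Among the transcription factors, Hoxa9 and Lmo2 were lower in every KO library. Hoxa9, a homeobox factor of stem and myeloid progenitor cells, was at 1.34, 1.15 and 0.963 FPKM in KO 1 to 3 and 1.75, 1.44 and 1.41 FPKM in wildtype 1 to 3. Lmo2 was at 83.5, 72.4 and 72.8 FPKM in KO 1 to 3 and 89.8, 90.1 and 102 FPKM in wildtype 1 to 3. The highest KO library stayed below the lowest wildtype library for both genes. That pattern was common in these data, since KO libraries lay wholly below wildtype in 13.7% of genes tested and wholly above, as for Prom1, in 11.3%. The log2 difference was -0.33 for Hoxa9 (SE 0.229, 2-SE interval -0.78 to 0.13, adjusted p 0.621 by edgeR) and -0.25 for Lmo2 (SE 0.152, 2-SE interval -0.55 to 0.06, adjusted p 0.561 by edgeR). Without KO 1, Lmo2 was at -0.41 (unadjusted p 0.0374, adjusted p 0.210 by edgeR). Lmo2 is also used by erythroid cells, whose markers were lower in KO, and the part of those cells in its level was not tested.

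Meis1, a homeobox partner of HOXA9, was at 1.01, 1.25 and 1.18 FPKM in KO 1 to 3 and 0.943, 1.18 and 0.991 FPKM in wildtype 1 to 3. The groups overlapped, and its log2 difference of 0.10 (SE 0.199, 2-SE interval -0.30 to 0.50, adjusted p 0.901 by edgeR) had the opposite sign to that of Hoxa9. Gata2, a zinc-finger factor of stem cells, mast cells and basophils, was at 3.25, 4.02 and 3.80 FPKM in KO 1 to 3 and 4.18, 3.69 and 3.82 FPKM in wildtype 1 to 3. KO 1 was the lowest of the 6 libraries, and the other KO libraries were inside the wildtype range, with a log2 difference of -0.10 (SE 0.146, 2-SE interval -0.40 to 0.19, adjusted p 0.846 by edgeR). The mast cell and basophil markers, a list that holds Gata2 itself, had a median log2 difference of -0.02 over 7 genes tested, and with Gata2 summed to 198 to 237 FPKM in KO and 139 to 303 FPKM in wildtype. The connective tissue mast cell proteases Mcpt4, Tpsb2 and Cma1 were near 0.

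Myb was at 12.9, 17.7 and 17.8 FPKM in KO 1 to 3 and 14.5, 16.3 and 13.9 FPKM in wildtype 1 to 3. KO 1 was the lowest library and KO 2 and KO 3 were the highest, so the KO group enclosed the wildtype range. The log2 difference was 0.05 (SE 0.161, 2-SE interval -0.27 to 0.37, adjusted p 0.950 by edgeR). An antisense gene inside Myb, Gm26577, was at a mean of 0.817 FPKM, and although the libraries were made strand-specific, the strand setting of the counting is not given in the sources used here, so reads of the pair may not be fully told apart.

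Mecom was at 0.121, 0.0879 and 0.108 FPKM in KO 1 to 3 and 0.162, 0.0955 and 0.0984 FPKM in wildtype 1 to 3, on 74 to 135 counts per library. The groups overlapped, and its mean of 0.112 FPKM was below the limit of 0.5 FPKM for testing. With no limit, its log2 difference was -0.07 (SE 0.393, adjusted p 0.988 by edgeR).

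Ratios between members within a library, which do not depend on scaling, set Prom1 apart from Kit and Myb. The Prom1 to Kit ratio of FPKM was 1.57, 1.70 and 1.68 in KO 1 to 3 and 0.857, 1.003 and 0.860 in wildtype 1 to 3. The Prom1 to Myb ratio was 0.614, 0.590 and 0.604 in KO and 0.319, 0.263 and 0.287 in wildtype. Both ratios were higher in each KO library, and the 3 KO libraries differed little from one another although KO 1 stood apart in the level of Prom1. The Flt3 to Kit ratio, in contrast, was 0.398 in KO 1, 0.616 in KO 2 and 0.634 in KO 3 and 0.342, 0.569 and 0.452 in wildtype 1 to 3, with overlap between the groups. As Prom1 was chosen for its rise, the 2 ratios that hold it are descriptions.

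By root mean square difference of log2(FPKM + 0.1) centred on the wildtype mean, over 6 libraries and 13306 candidate genes, the profile nearest to Prom1 was that of the lincRNA gene F730016J06Rik (0.0318), at 5.68 to 7.44 FPKM in KO and 2.70 to 3.27 FPKM in wildtype. Next came Acpp (0.0908), an acid phosphatase, then Ltf (0.102), the lactoferrin of neutrophil secondary granules, Inpp5j (0.106), an inositol phosphatase, and Lin28a (0.108), an RNA-binding protein that blocks let-7 maturation. Ly75 (0.132), an endocytic receptor, Mtus1 (0.142), Siglece (0.143), a sialic acid-binding receptor of myeloid cells, Trib3 (0.147) and Abca13 (0.147) completed the 10. Ltf was far above Prom1 in level, at 1090, 1529 and 1514 FPKM in KO 1 to 3 and 668, 666 and 664 FPKM in wildtype 1 to 3. All 10 shared the order of Prom1 in which KO 1 lay between wildtype and the other KO libraries, and a higher KO level in them follows from how they were chosen.

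None of the other 9 members was close to Prom1 by that measure. Flt3 was nearest of them at 0.477, with 853 candidate genes nearer to Prom1 than it, followed by Kit at 0.608 with 1840 genes nearer. Cd34, Meis1 and Myb lay at 0.711, 0.731 and 0.742, Gata2 and Mecom at 0.869 and 0.892, and Lmo2 and Hoxa9 were farthest at 1.05 and 1.12. For Hoxa9, 11093 of the 13306 candidates were nearer to Prom1.

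**Figure D3:**
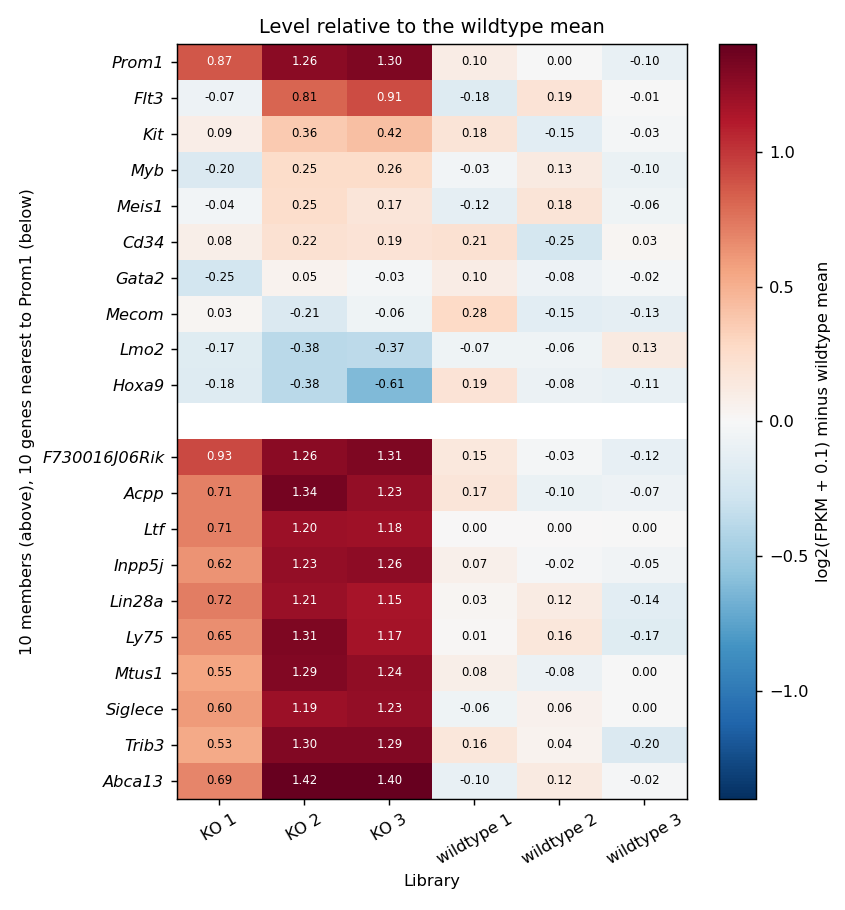
Level of each gene in each library relative to its wildtype mean, as a difference in log2(FPKM + 0.1), for the 10 members above and the 10 genes nearest to Prom1 below; red is above and blue below the wildtype mean. Prom1 reads 0.87, 1.26 and 1.3 in KO 1 to 3, Flt3 reads -0.07 in KO 1 and 0.81 and 0.91 in KO 2 and KO 3, and Lmo2 and Hoxa9 are blue in the 3 KO libraries.

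The wider circle of stem and progenitor genes had a lower mean in KO for most of its genes. Of 33 tested genes of stem cells and early progenitors, 12 had a higher and 21 a lower mean, and 2 were higher and 7 lower at an unadjusted p under 0.05 (background 7.63% higher and 6.07% lower), with a median log2 difference of -0.19. The median was -0.05 without KO 1 and -0.19 without KO 2 and KO 3. Of all genes tested, 47.5% had a higher mean in KO with 5 samples. Gfi1, a transcriptional repressor of granulocyte precursors and stem cells, was at 15.8 to 18.3 FPKM in KO and 9.42 to 11.6 FPKM in wildtype (0.73, SE 0.153, adjusted p 0.166 by edgeR). It is also a factor on the granulocyte precursor list. Mllt3, a factor of stem cell maintenance, was at 1.19 to 1.38 FPKM in KO and 1.95 to 2.27 FPKM in wildtype (-0.63, SE 0.155, adjusted p 0.177 by edgeR). Sox4, a factor of lymphoid progenitors among other cells, was at 3.60 to 4.01 FPKM in KO and 5.15 to 6.88 FPKM in wildtype (-0.65, SE 0.166, adjusted p 0.186 by edgeR). With the 6 libraries as labelled, 2 genes of the list passed the adjusted threshold in each direction.

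Genes of lineage commitment had means on both sides of wildtype, and 0 of 22 passed the adjusted threshold with 5 samples (edgeR). The median log2 difference was 0.30 (0.25 without KO 1 and 0.30 without KO 2 and KO 3). At an unadjusted p under 0.05, 7.63% of all genes were higher and 6.07% lower. Of the 22, 15 had a higher mean in KO, 10 of them at that threshold, and 7 had a lower mean, 5 of them at that threshold. The 7 were Gata1, Klf1 and Epor of the erythroid lineage (-0.59, -0.62 and -0.56), Itga2b of megakaryocytes (-0.13) and 3 genes of the B lineage, which had the smallest p: Il7r, the interleukin-7 receptor, at 3.12 to 3.17 FPKM in KO and 6.39 to 7.51 FPKM in wildtype (log2 difference -1.10), Ebf1 at 1.06 to 1.31 and 2.75 to 3.88 FPKM (-1.44), and Pax5 at 1.86 to 1.91 and 4.74 to 6.75 FPKM (-1.55). Their adjusted p-values were 0.119, 0.111 and 0.105 (edgeR, Benjamini-Hochberg) with 5 samples and 0.0200, 0.0217 and 0.0141 with the 6 libraries as labelled.

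The markers of granulocyte precursors had higher means in KO. All 9 tested had a higher mean in KO and all 9 an unadjusted p under 0.05, beside 7.63% of all genes in that direction. Mpo, Elane, Prtn3, Ctsg and Cebpe were already counted among the lineage commitment genes, and Gfi1 among the stem cell genes. The median log2 difference was 0.87 (1.03 without KO 1 and 0.72 without KO 2 and KO 3). The markers summed to 2098 to 2875 FPKM in KO and 1148 to 1564 FPKM in wildtype. Of the 9, 5 passed the adjusted threshold with the 6 libraries as labelled, as 3.71% of all genes did, and 0 with 5 samples (edgeR). Later neutrophil markers summed to 62604, 50753 and 51999 FPKM in KO 1 to 3 and 27099 to 43816 FPKM in wildtype. Early B cell markers summed to 37.3 to 41.9 FPKM in KO and 86.6 to 97.7 FPKM in wildtype. Of 10 tested, 9 were lower at an unadjusted p under 0.05, beside 6.07% of all genes. Erg, a factor also found in other cells and already counted among the stem cell genes, was higher. Il7r and Ebf1 were already counted among the lineage commitment genes. The Prom1 level and both granulocyte sums were above wildtype in every KO library. Within KO, Prom1 and the precursor sum were lowest in KO 1, whereas the later neutrophil sum, most of it S100a8 and S100a9, was highest there. Gene by gene, the later neutrophil list was mixed. Camp, Ngp, S100a8, S100a9, Retnlg and Ly6g were highest in KO 1 among the KO libraries. Ltf, Lcn2, Mmp8, Mmp9 and Cxcr2 were lowest there. Of the precursor markers, Fcnb was highest in KO 1 and Cebpe lay between KO 2 and KO 3. The part of such cells in the Prom1 level was not tested.

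The list of ligands and niche factors held ligands of these receptors together with other genes of marrow stroma. All 12 tested had a lower mean in KO, 0 of them at an adjusted p under 0.05 by edgeR. At an unadjusted p under 0.05, 6 were lower, beside 6.07% of all genes. The median log2 difference was -0.49 (-0.62 without KO 1 and -0.37 without KO 2 and KO 3). Kitl, the ligand of KIT, was at 5.94 to 6.23 FPKM in KO and 8.20 to 10.2 FPKM in wildtype (-0.55, SE 0.139, adjusted p 0.182 by edgeR with 5 samples and 0.0399 with 6 libraries). Vcam1, an adhesion molecule of marrow stroma and macrophages, was at 27.7 to 31.9 and 38.1 to 51.1 FPKM (-0.54, adjusted p 0.264 by edgeR), and Lepr, the leptin receptor of marrow stromal cells, was at 7.5 to 7.72 and 9.12 to 12.0 FPKM (-0.42, adjusted p 0.257 by edgeR). Flt3l, the ligand of FLT3, overlapped between the groups at 4.24 to 4.89 FPKM in KO and 4.54 to 5.84 FPKM in wildtype. Fibroblast and stromal markers summed to 514 to 532 FPKM in KO and 506 to 930 FPKM in wildtype, with a median log2 difference of -0.48. Lepr and Cxcl12 are on both this list and that of ligands and niche factors. The part of stromal cells in the ligand levels was not tested.

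Downstream of KIT and FLT3, 19 of 26 signalling genes had a higher mean in KO, with a median log2 difference of 0.09. At an unadjusted p under 0.05, 7 were higher and 1 lower, beside 7.63% and 6.07% of all genes. Fes, a tyrosine kinase of myeloid cells, was at 51.0 to 65.5 FPKM in KO and 32.5 to 37.7 FPKM in wildtype (0.75, SE 0.148, adjusted p 0.166 by edgeR with 5 samples and 0.0358 with 6 libraries). Ptpn6, the phosphatase SHP-1 of blood cells, was at 87.8 to 125 and 71.0 to 84.2 FPKM (0.48, adjusted p 0.273 by edgeR), and Socs3, a feedback inhibitor of cytokine signalling, at 10.6 to 12.7 and 6.94 to 9.11 FPKM (0.47, adjusted p 0.311 by edgeR). The median was 0.25 without KO 1 and 0.02 without KO 2 and KO 3.

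Of the HOXA cluster and the partners of HOXA9 and MEIS1, 13 of 17 tested had a lower mean in KO (median -0.24). At an unadjusted p under 0.05, 3 were lower and 2 higher, beside 6.07% and 7.63% of all genes. Pbx2, a homeobox partner, was higher at 27.3 to 31.1 FPKM in KO and 21.8 to 22.0 FPKM in wildtype (0.43, adjusted p 0.191 by edgeR). Trib2, a pseudokinase known as a target of MEIS1, was at 2.89 to 3.87 and 4.90 to 6.2 FPKM (-0.71, adjusted p 0.222 by edgeR). The median of the list was -0.49 without KO 1 and -0.02 without KO 2 and KO 3.

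Of 17 tested genes of the LMO2, GATA2 and TAL1 complex, 10 had a lower mean (median -0.18), 4 lower and 2 higher at an unadjusted p under 0.05, beside 6.07% and 7.63% of all genes. Tal1, Lyl1, Runx1, Fli1 and Erg were already counted among the stem and progenitor genes, and Gata1 among those of lineage commitment. The median of the list was -0.23 without KO 1 and -0.17 without KO 2 and KO 3 (edgeR). Gata1, the erythroid and megakaryocytic GATA factor, was at 21.4 to 25.4 FPKM in KO and 32.3 to 41.3 FPKM in wildtype (-0.59, adjusted p 0.202 by edgeR), and Tcf3, the E protein E2A, at 17.5 to 22.2 and 26.3 to 33.2 FPKM (-0.52, adjusted p 0.252 by edgeR), so both were lower in each KO library as Lmo2 was. Erg, an ETS factor, was higher at 9.23 to 11.6 and 7.07 to 7.68 FPKM (0.53, adjusted p 0.186 by edgeR).

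Relatives and cofactors of MYB and MECOM held 9 tested genes, of which 0 had an unadjusted p under 0.05 by edgeR with 5 samples. Kmt2a and Men1 among them were also counted with the HOXA cluster and partners. Their median log2 difference was 0.06 (0.14 without KO 1 and -0.07 without KO 2 and KO 3). The 3 with the smallest p were Ctbp2, a corepressor, at 3.38 to 4.87 FPKM in KO and 3.01 to 3.48 FPKM in wildtype (0.35), Ep300, a histone acetyltransferase, at 5.87 to 10.1 and 5.57 to 7.26 FPKM (0.27), and Cbfb, the partner of RUNX factors, at 25.1 to 36.5 and 25.6 to 31.7 FPKM (0.13). All 3 overlapped between the groups. Of the paralog and binding partners of Prom1, 3 were tested: Hdac6 (0.12), Arl13b (-0.18) and Pik3r1 (-0.41, unadjusted p 0.0419 and adjusted p 0.340 by edgeR). Arl13b was slightly lower in each KO library, and Hdac6 and Pik3r1 overlapped between the groups. Pik3r1 was also counted among the signalling genes of KIT and FLT3.

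The deposited annotation placed Kit, Cd34 and Flt3 in the KEGG pathway of hematopoietic cell lineage. The other genes of that pathway had a median log2 difference of -0.34 over 73 tested. Of these 73, 53 had a lower and 20 a higher mean. At an unadjusted p under 0.05, 21 were lower and 7 higher, beside 6.07% and 7.63% of all genes. Among the smallest p-values were those of Il7r and of Dntt, the terminal transferase of early lymphocytes, which was at 4.65 to 5.53 FPKM in KO and 12.2 to 14.7 FPKM in wildtype (-1.35). Kit, Cd34 and Flt3, which were left out of these counts, each had a higher mean in KO.

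**Figure D4:**
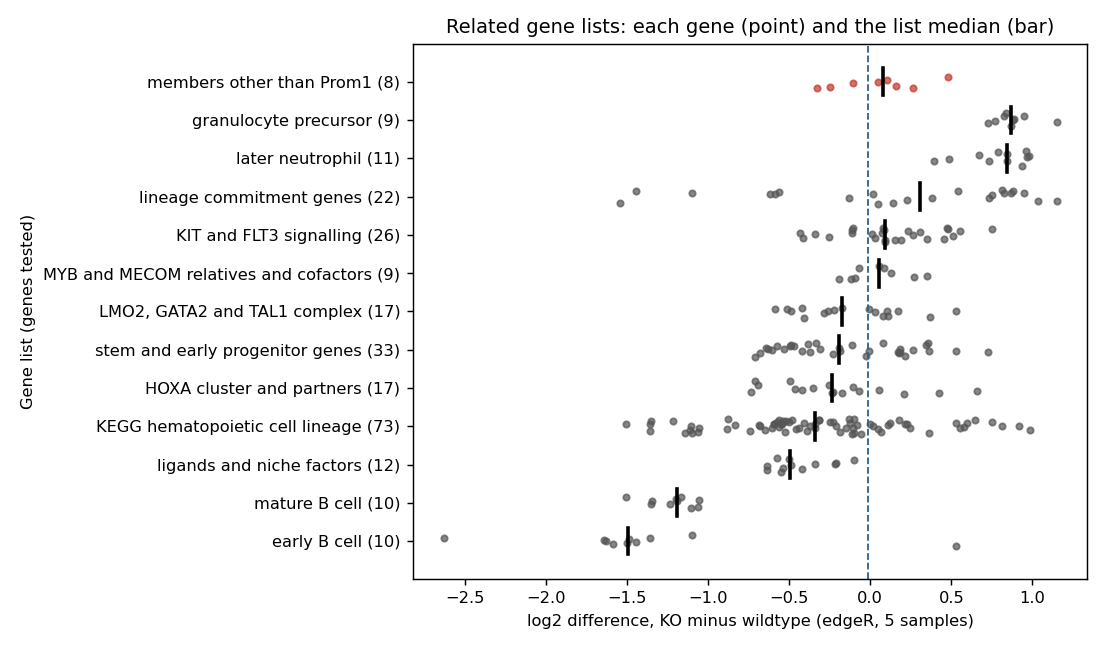
Log2 difference between KO and wildtype (5 samples, edgeR) of each tested gene (points) in the members other than Prom1 and in 12 related or marker lists, with the list median as a bar and the median of all tested genes (-0.02) as a dashed line. The 8 members straddle 0 with a median of 0.08, the granulocyte lists lie to the right, and the ligand and B cell lists to the left.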

How the data were processed

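Articular cartilage of KO and wildtype mice was sequenced as poly(A)-selected RNA with molecular identifiers, and the knocked-out gene is not reported here. Per the labels, the authors' tools were cutadapt 1.9, HISAT2 2.0.4, UMI-tools, StringTie 1.3.4d, DESeq2 and edgeR. The deposited table gave, per gene and library, FPKM and estimated counts made by the authors, and the counts summed to 52268311 to 63331135 per library. Estimated counts were rounded and tested with edgeR 4.0.16 (R 4.3.3, quasi-likelihood test, TMM scaling) on genes that averaged 0.5 FPKM or more, with Benjamini-Hochberg adjustment over 15373 genes and KO 2 and KO 3 averaged. DESeq2 1.42.0 and limma 3.58.1 were among the alternatives. The fit was tested on simulated data. Members and lists were chosen with earlier results of these data known. Named genes were the 10 members, up to 3 genes per list with the smallest p that averaged 1 FPKM or more, and the 10 genes nearest to Prom1. A few genes outside that rule (Flt3l, Klf1, Epor, Itga2b and marker genes) were named after their values were seen.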

Additional observations from a re-analysis of the deposited data

How the results depend on the processing

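With 5 samples, 0 genes had an adjusted p under 0.05 (edgeR). The count was 570 with the 6 libraries as labelled, 21 without a filter on low values, 880 with DESeq2, 0 to 352 with 1 library left out (352 without KO 1, and 1 each without wildtype 2 and wildtype 3) and 9 without KO 2 and KO 3. The cause was not tested. In none of the alternatives did a tested member other than Prom1 pass that threshold, with adjusted p-values down to 0.107 (Flt3 without KO 1). The median log2 difference of the 8 tested members was 0.013 to 0.17 with 1 library left out, lowest without wildtype 1 and highest without KO 1, and -0.049 without KO 2 and KO 3, where Flt3 (-0.0048) and Myb (-0.13) changed sign. Leaving out KO 1, or KO 2 and KO 3 together, leaves a lone KO sample that is assumed to vary like wildtype. With the replicate number as a replicate block on the 6 libraries, the median was 0.12, and 0 genes and 0 members passed the threshold. Deviations of same-numbered libraries from their group means correlated at -0.16, -0.15 and -0.01. With 3 libraries per group, and KO 2 and KO 3 nearly alike, these values cannot show or exclude a pairing. Mecom (74 to 135 counts) and genes near the 0.5 FPKM limit are the least precisely measured, and 5 samples limit all tests.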
